A study of Mus musculus with 12 samples.

Results

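The expression of 10 stromal factors that support blood and osteoclast precursors was followed in RNA-seq libraries of cultured bone marrow cells. The paper names these cells mesenchymal stem cells (MSCs), stromal cells that can form bone or fat cells, but the cultures also held macrophage transcripts. The factors are *Cxcl12*, *Kitl*, *Lepr*, *Angpt1*, *Il7*, *Csf1*, *Il34*, *Tnfsf11*, *Tnfrsf11b* and *Grem1*. These 10 of the 54532 genes in the deposited table were found by matching Ensembl identifiers to mouse symbols. The list was chosen with earlier results of these data known, so comparisons of its counts with all genes are descriptive. All 10 were above 0 in all 12 libraries, and 9 of them reached 1 FPKM (fragments per kilobase of gene, scaled for depth) in at least 3 libraries, the condition for being tested. *Lepr* did not.

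Marrow stromal cells make the signals that keep blood-forming cells and osteoclast precursors in place and alive. CXCL12 holds stem and progenitor cells in the niche through CXCR4, KITL and ANGPT1 act on KIT and TIE2, LEPR marks the perivascular stroma that makes them, and IL7 feeds lymphoid progenitors. CSF1 and IL34 share the receptor CSF1R and sustain macrophages and osteoclast precursors. RANKL, encoded by *Tnfsf11*, drives these precursors to become osteoclasts, OPG, encoded by *Tnfrsf11b*, is its soluble decoy receptor, and GREM1 binds and blocks BMPs.

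The cells came from 4-week-old C57BL/6 mice, either *Chd7*fl/fl (control) or *Prx1-cre;Chd7*fl/fl (labelled knockout), so both genotypes carried floxed *Chd7* alleles. *Chd7* encodes a chromatin remodeler. *Prx1-cre* is active in limb mesenchyme and removes exon 2, while cells of other origin in the marrow flush of femurs, tibiae and humeri are not its target. Passage 3 cells were held for 5 days in osteogenic medium (10 mM β-glycerophosphate, 50 µM ascorbic acid and 10 nM dexamethasone) or in adipogenic medium (1 µM dexamethasone, 0.5 µM isobutylmethylxanthine and 10 µg/ml insulin), with 3 libraries in each of the 4 groups. No source used here says that the 3 libraries of a group came from separate animals, so p-values measure the spread between these libraries, which may be technical. The fit of all 12 libraries pools this spread over the 4 groups. Control adipogenic library 2 stood further from its group than any other library did.

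The libraries held 17496343 to 21099588 fragments on genes. *Chd7*, counted over the whole gene and not over exon 2, in osteogenic medium averaged 2.69 ± 0.0682 FPKM in control libraries (SD, n = 3) and 2.22 ± 0.166 FPKM in knockout-labelled ones (adjusted p = 0.16), and 2.10 ± 0.255 against 2.29 ± 0.235 FPKM in adipogenic medium (adjusted p = 0.428). The genotype is therefore named by its label throughout. In adipogenic medium control library 2 stood apart from control libraries 1 and 3, with Pearson's r across genes of 0.939 and 0.943 against 0.989 between those libraries, and knockout-labelled library 1 stood apart less, at 0.980 and 0.981. All 12 stromal markers and all 15 macrophage markers reached 1 FPKM in some library. The stromal list summed to 1316 to 1962 FPKM over the 12 libraries, less than the macrophage list in every one of them. The macrophage list summed to 14835 to 15343 FPKM in control and 16325 to 16785 FPKM in knockout-labelled libraries in osteogenic medium. The adipogenic sums were 20005, 10202 and 19883 FPKM in control libraries 1, 2 and 3, and 8289 to 9859 FPKM in the knockout-labelled libraries.

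Promoters are shown for *Tnfsf11*, *Csf1* and *Grem1*, the 3 factors with the largest genotype differences in adipogenic medium, and for *Cxcl12*, whose genotype difference had opposite signs in the media. RefSeq promoter sequences (GRCm38.p6) matched 6 of the 10 factors, *Cxcl12*, *Kitl*, *Lepr*, *Csf1*, *Tnfsf11* and *Grem1*. Each line gives the 250 bases before the start of transcription, 5′ to 3′ on the strand of the gene. Capitals mark matches on either strand to 4 short motifs. The TATA box was searched as TATAAA. The CCAAT box was searched by the letters of its name. The glucocorticoid receptor element was searched as AGAACA, because dexamethasone was in both media. The cAMP response element was searched as TGACG, because isobutylmethylxanthine, which raises cAMP, was in the adipogenic medium. The lines are *Tnfsf11* at chr14:78308044-78308293 (minus strand), *Csf1* at chr3:107760470-107760719 (minus strand), *Grem1* at chr2:113758649-113758898 (minus strand) and *Cxcl12* at chr6:117168285-117168534 (plus strand).
Tnfsf11: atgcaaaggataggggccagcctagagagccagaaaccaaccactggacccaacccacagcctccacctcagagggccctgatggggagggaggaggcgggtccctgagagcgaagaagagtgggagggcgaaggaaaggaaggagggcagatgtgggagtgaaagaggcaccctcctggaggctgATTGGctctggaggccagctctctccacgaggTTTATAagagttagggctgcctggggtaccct
Csf1: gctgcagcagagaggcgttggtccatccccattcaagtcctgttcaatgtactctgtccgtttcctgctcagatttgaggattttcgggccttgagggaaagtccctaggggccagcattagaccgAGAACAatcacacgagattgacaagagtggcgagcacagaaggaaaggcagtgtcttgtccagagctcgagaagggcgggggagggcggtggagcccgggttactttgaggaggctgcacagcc
Grem1: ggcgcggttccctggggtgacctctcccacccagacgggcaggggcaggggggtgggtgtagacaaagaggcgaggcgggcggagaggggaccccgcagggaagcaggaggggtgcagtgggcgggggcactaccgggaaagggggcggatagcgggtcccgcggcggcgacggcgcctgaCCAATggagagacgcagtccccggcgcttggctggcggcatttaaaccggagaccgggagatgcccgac
Cxcl12: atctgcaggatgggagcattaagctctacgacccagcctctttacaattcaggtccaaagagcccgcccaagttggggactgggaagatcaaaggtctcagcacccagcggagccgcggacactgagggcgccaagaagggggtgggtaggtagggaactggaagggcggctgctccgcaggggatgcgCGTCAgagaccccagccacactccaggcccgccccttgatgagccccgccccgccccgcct

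The *Tnfsf11* window held a TATA box on the other strand, 32 to 27 bases before the start, and a CCAAT box on the other strand. The *Csf1* window held AGAACA on its own strand, 124 to 119 bases before the start. *Grem1* held a CCAAT box 69 to 65 bases before the start, and *Cxcl12* held TGACG on the other strand, 61 to 57 bases before the start. Of 32851 RefSeq promoter windows of this length, 12.4% held the TATA box, 33.8% the CCAAT box, 16.1% AGAACA and 17.8% TGACG. The *Grem1* window was 72.0% G and C, against 64.4% in *Cxcl12*, 60.4% in *Tnfsf11*, 56.4% in *Csf1* and a median of 52.4% over all windows. No binding or accessibility data were analysed here, so these are descriptions of the sequence.

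Per length of gene, *Csf1* and *Grem1* were the most abundant of the 10 factors. *Csf1* ran from 126 to 310 FPKM over the 12 libraries and *Grem1* from 40.7 to 150 FPKM. *Cxcl12* came next at 8.27 to 14.8 FPKM, and *Il34* and *Tnfrsf11b* lay between 3 and 9.6 FPKM. *Kitl* (1.84 to 3.73 FPKM), *Angpt1* (1.1 to 2.68 FPKM), *Il7* (0.72 to 1.36 FPKM) and *Lepr* (0.449 to 1.13 FPKM) were low throughout. *Tnfsf11* had the widest range, from 0.518 to 10.7 FPKM, a 20.6-fold span, while the other 9 factors spanned 1.79-fold (*Cxcl12*) to 3.69-fold (*Grem1*).

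**Figure D1:**
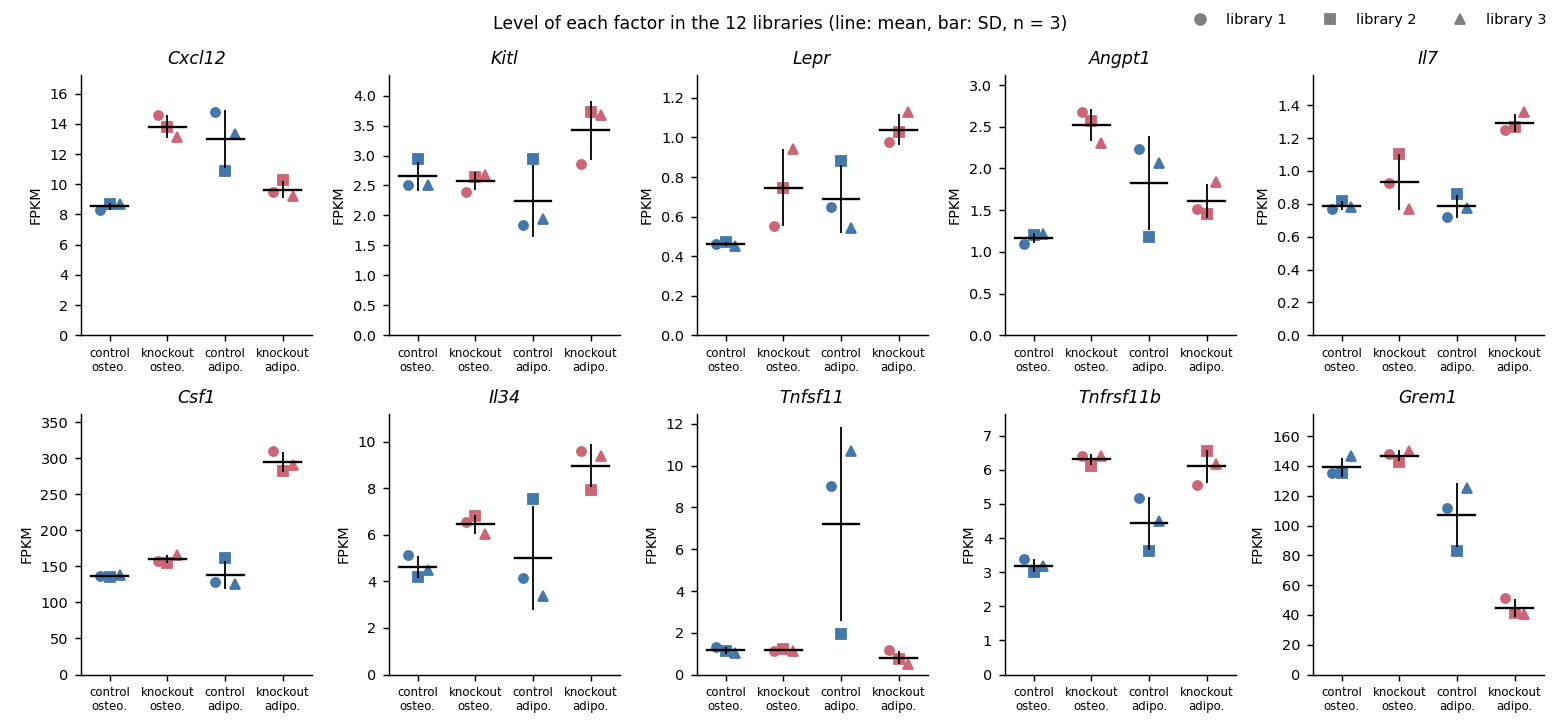
Level in FPKM (y axis, linear from 0) of the 10 factors in the 4 groups (x axis), with one point per library, the mean as a line and the SD as a bar (n = 3). *Csf1* in adipogenic medium sits at 282 to 310 FPKM in the knockout-labelled libraries, above all other libraries, and *Tnfsf11* reaches 9.04 and 10.7 FPKM in control libraries 1 and 3 in that medium but 1.92 FPKM in control library 2.

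In osteogenic medium the knockout-labelled cells had more *Cxcl12*, *Angpt1* and *Tnfrsf11b* transcript than the control cells, and no factor passed the test in the other direction. These 3 of the 9 tested factors passed the test, against 9.09% of all 12871 genes tested. In adipogenic medium 8 of the 9 passed, against 33.2% of all genes: *Csf1*, *Il34*, *Kitl*, *Tnfrsf11b* and *Il7* rose and *Tnfsf11*, *Grem1* and *Cxcl12* fell. *Il7* reached 1 FPKM in 4 libraries, all of them knockout-labelled, and so entered the test only through the group in which it was high. Without it the count was 7 of 8, and the median log2 difference of the other 8 factors was 0.32 in osteogenic and 0.15 in adipogenic medium. Rescaling every library to the same sum of FPKM moved the median difference of all genes in adipogenic medium to 0.138 and the split of called genes from 2153 higher and 2123 lower to 3252 and 900, and 5 factors then rose and 2 fell. With *Il7* the medians were 0.22 and 0.36, against -0.006 and -0.015 over all genes tested in osteogenic and adipogenic medium. Differences are on the log2(FPKM + 1) scale, from limma over all 12 libraries with Benjamini-Hochberg adjustment over all genes tested, and this scale understates the change of genes near 1 FPKM.

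Counted by ranges, the genotypes did not overlap for 5 of the 9 tested factors in osteogenic medium, against 44.3% of all genes, and for 7 of 9 in adipogenic medium, against 38.6%. The osteogenic count is thus close to that of all genes. The adipogenic count includes *Il7*, which entered the test only through the group in which it was high, and the same holds for its calls below. When only the 6 osteogenic libraries were fitted, *Csf1* (adjusted p = 0.00326) and *Il34* (adjusted p = 0.00741) passed as well, beside 26.6% of all genes. When only the 6 adipogenic libraries were fitted, *Csf1*, *Grem1* and *Il7* alone of the 9 passed, beside 13% of all genes. With control library 2 as the only control in adipogenic medium, a fit chosen after seeing the data in which the lone library is assumed to vary like the other groups, 4 of the 9 factors passed, *Csf1*, *Grem1*, *Tnfrsf11b* and *Tnfsf11*, beside 25.5% of all genes.

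**Figure D2:**
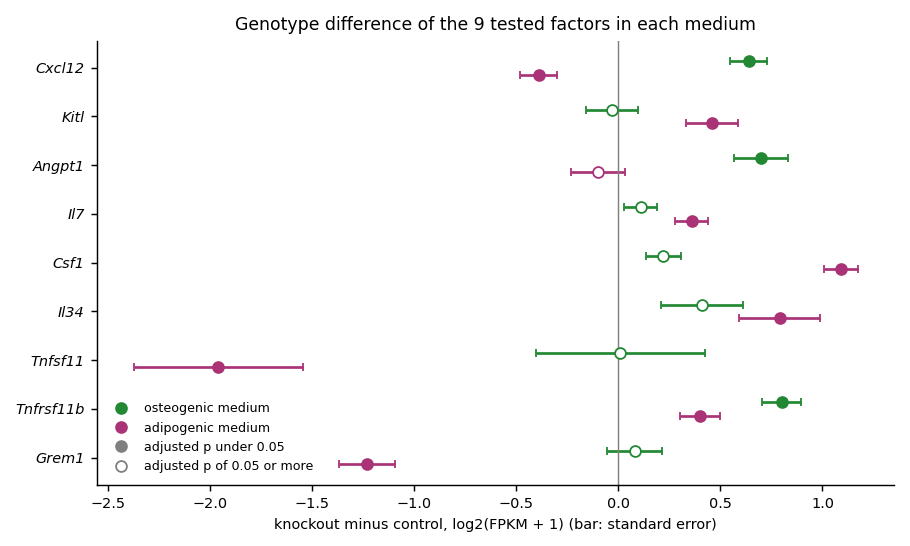
Difference of knockout-labelled minus control libraries in log2(FPKM + 1) (x axis) for the 9 tested factors (y axis) in osteogenic and adipogenic medium, with the limma standard error as a bar and filled points where the adjusted p was under 0.05. *Cxcl12* lies at 0.64 in osteogenic and -0.39 in adipogenic medium, and *Tnfsf11* at 0.01 and -1.96.

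*Cxcl12* (ENSMUSG00000061353, GRCm38 chromosome 6, 117168535 to 117181367, plus strand), the chemokine that retains stem cells, changed in opposite directions in the media. The osteogenic values were 8.27, 8.69 and 8.68 FPKM in control and 14.6, 13.8 and 13.1 FPKM in knockout-labelled libraries. Adipogenic control libraries held 14.8, 10.9 and 13.3 FPKM, and the knockout-labelled ones 9.48, 10.3 and 9.21 FPKM. The genotypes did not overlap in either medium. The means of 8.54 ± 0.239 and 13.8 ± 0.769 FPKM (SD, n = 3) in osteogenic medium gave a log2 difference of 0.64 (standard error 0.0906, adjusted p = 0.0023), and it stayed past the threshold without each library in turn. The means of 13 ± 1.95 and 9.65 ± 0.548 FPKM in adipogenic medium gave -0.39 (adjusted p = 0.00932). When every library was rescaled to the same sum of FPKM, the adipogenic difference was -0.21 (adjusted p = 0.0544). Against control library 2 alone it was -0.16 (adjusted p = 0.142). The control adipogenic and knockout-labelled osteogenic groups, the higher pair, overlapped in range. In bulk RNA, fewer cells of a type and less RNA per cell cannot be told apart.

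*Kitl* (ENSMUSG00000019966, chromosome 10, 100015630 to 100100416, plus strand), the ligand of KIT, showed no detectable difference in osteogenic medium, at 2.51, 2.94 and 2.51 FPKM in control and 2.39, 2.64 and 2.67 FPKM in knockout-labelled libraries (log2 difference -0.03, adjusted p = 0.921). The adipogenic values were 1.84, 2.94 and 1.94 FPKM in controls, against 2.85, 3.73 and 3.68 FPKM in the knockout-labelled group. Control library 2 overlapped the knockout-labelled range there. The difference of 0.46 (standard error 0.127, adjusted p = 0.0205) passed the test, but the adjusted p was 0.0729 to 0.0756 when control library 1, control library 3, knockout-labelled library 2 or knockout-labelled library 3 was left out. Against control library 2 alone it was 0.16 (adjusted p = 0.409). *Kit* itself was at most 0.214 FPKM in any library.

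*Lepr* (ENSMUSG00000057722, chromosome 4, 101717404 to 101815352, plus strand), the leptin receptor by which niche stroma is often identified, was the least abundant of the 10 factors by its highest value. The osteogenic values were 0.461, 0.473 and 0.449 FPKM in control and 0.553, 0.745 and 0.943 FPKM in knockout-labelled libraries. In adipogenic medium it was 0.647, 0.881 and 0.543 FPKM in control and 0.975, 1.03 and 1.13 FPKM in knockout-labelled libraries. The knockout-labelled values lay above the control values in both media. These values rest on 56 to 151 fragments per library. Summed over 3 libraries, the fragment rates had a ratio of 1.62 in osteogenic medium (1.34 to 1.97, a 95% exact binomial interval for counting error alone) and of 1.48 in adipogenic medium (1.26 to 1.73). Fitted without a filter on low values, the differences of 0.25 and 0.28 did not pass the test (adjusted p = 0.297 and 0.111).

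*Angpt1* (ENSMUSG00000022309, chromosome 15, 42424723 to 42676977, minus strand), the angiopoietin that activates TIE2, rose in osteogenic medium. There it was 1.10, 1.20 and 1.21 FPKM in control and 2.68, 2.57 and 2.31 FPKM in knockout-labelled libraries, without overlap. The ratio of means was 2.16 and the log2 difference 0.70 (standard error 0.132, adjusted p = 0.01), with an adjusted p of 0.0306 to 0.0476 without each library in turn. Adipogenic control libraries held 2.23, 1.18 and 2.06 FPKM, and the knockout-labelled ones 1.52, 1.46 and 1.84 FPKM. Control library 2 lay below, and control libraries 1 and 3 above, every knockout-labelled library. The difference was -0.10 with all libraries (adjusted p = 0.599) and -0.27 without control library 2 (adjusted p = 0.0175). Of its exonic length, 14.2% overlaps the antisense gene *Gm17473*, whose reads cannot be told apart because the use of strand is not stated. Its receptor gene *Tek* was at most 0.293 FPKM. The endothelial marker list, which holds *Tek*, summed to 6.86 to 7.07 FPKM in control and 12.4 to 13.3 FPKM in knockout-labelled libraries in osteogenic medium, and to 5.45 to 6.33 and 9.45 to 11.4 FPKM in adipogenic medium. Its part in the *Angpt1* result was not tested.

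*Il7* (ENSMUSG00000040329, chromosome 3, 7569994 to 7613760, minus strand), the lymphoid growth factor, was 0.769, 0.819 and 0.779 FPKM in control and 0.924, 1.10 and 0.766 FPKM in knockout-labelled libraries in osteogenic medium, with overlapping ranges (difference 0.11, adjusted p = 0.494). The adipogenic values were 0.72, 0.86 and 0.774 FPKM in controls, against 1.25, 1.27 and 1.36 FPKM in the knockout-labelled group. These knockout-labelled values lay above those of all 9 other libraries. The ratio of means was 1.65 and the log2 difference 0.36 (standard error 0.0811, adjusted p = 0.00759), and 0.30 (adjusted p = 0.104) against control library 2 alone. The receptor gene *Il7r* was 10.0 to 20.6 FPKM, and no lymphoid marker reached 1 FPKM in any library. An antisense gene covers 1.85% of its exonic length.

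*Csf1* (ENSMUSG00000014599, chromosome 3, 107741048 to 107760469, minus strand), the main growth factor of macrophages and osteoclast precursors, gave the largest increase among the 9 tested factors on the log2(FPKM + 1) scale, though not by ratio of means, which in osteogenic medium was 2.16 for *Angpt1*. The adipogenic values were 128, 161 and 126 FPKM in control and 310, 282 and 291 FPKM in knockout-labelled libraries. Each knockout-labelled library held more than every library of the other 3 groups. The means of 138 ± 20.0 and 295 ± 14.0 FPKM (SD, n = 3) gave a ratio of 2.13 and a log2 difference of 1.09 (standard error 0.0847, adjusted p = 1.77e-05), and 0.86 (adjusted p = 3.89e-05) against control library 2 alone. In osteogenic medium *Csf1* was 137, 136 and 138 FPKM in control and 158, 155 and 166 FPKM in knockout-labelled libraries. The groups did not overlap, but the difference of 0.22 did not pass the test (adjusted p = 0.148). Its receptor gene *Csf1r*, a macrophage gene, went the other way. It was 296, 307 and 299 FPKM in control and 186, 187 and 188 FPKM in knockout-labelled libraries in osteogenic medium (difference -0.68, adjusted p = 0.0136). Adipogenic control libraries held 386, 263 and 383 FPKM, and the knockout-labelled ones 226, 182 and 178 FPKM (difference -0.80, adjusted p = 0.00186). Of the 15 macrophage markers, 1 was called higher (*C1qa*) and 2 lower (*Csf1r* and *C1qb*) in osteogenic medium. These calls stand beside 9.09% of all genes, with a median of -0.13, and the summed FPKM was higher in the knockout-labelled libraries. In adipogenic medium 2 were higher (*C1qa* and *C1qb*) and 8 lower (median -0.71), beside 33.2% of all genes. There the knockout-labelled sums of these markers were below every control sum. Their part in the *Csf1* result was not tested.

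*Il34* (ENSMUSG00000031750, chromosome 8, 110741829 to 110805924, minus strand), the other ligand of CSF1R, was 5.12, 4.19 and 4.51 FPKM in control and 6.54, 6.83 and 6.03 FPKM in knockout-labelled libraries in osteogenic medium. The groups did not overlap, and the difference of 0.41 did not pass the test (standard error 0.2, adjusted p = 0.25). The adipogenic values were 4.13, 7.54 and 3.37 FPKM in controls, against 9.60, 7.91 and 9.40 FPKM in the knockout-labelled group. Control library 2 lay just below the lowest knockout-labelled library. The difference was 0.79 (adjusted p = 0.0138), 0.70 without control library 1 (adjusted p = 0.0518), and 0.22 against control library 2 alone (adjusted p = 0.221). *Csf1* exceeded *Il34* per length in every library. Antisense genes cover 4.95% of the exonic length of *Il34*.

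*Tnfsf11* (ENSMUSG00000022015, chromosome 14, 78277445 to 78308043, minus strand), encoding the osteoclast inducer RANKL, fell in adipogenic medium, with no difference past the threshold in osteogenic medium. The osteogenic values were 1.33, 1.14 and 1.01 FPKM in control and 1.15, 1.24 and 1.13 FPKM in knockout-labelled libraries. The groups overlapped, the difference was 0.01 (standard error 0.414, adjusted p = 0.995), and the fragment ratio of 1.01 had a counting interval of 0.789 to 1.28. In adipogenic medium it was 9.04, 1.92 and 10.7 FPKM in control and 1.17, 0.759 and 0.518 FPKM in knockout-labelled libraries. All 3 control libraries lay above the knockout-labelled ones, with library 2 much closer to them than libraries 1 and 3. On 809 against 103 fragments, the log2 difference was -1.96 (standard error 0.414, adjusted p = 0.0057). It was -2.59 without control library 2 and -0.70 with that library as the only control (adjusted p = 0.0221).

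Some other genes separated the control adipogenic libraries in the same way. *Adgre1*, which encodes the macrophage marker F4/80, had the largest fall of the 15 macrophage markers (-2.05), while *C1qa* was higher by 0.67 and *Cd68* differed by 0.01. It was 1171 and 1136 FPKM in control libraries 1 and 3 and 227 FPKM in control library 2, against 255, 130 and 127 FPKM in knockout-labelled libraries. *Il6* was 23.4, 0.807 and 25.8 FPKM in control and 2.02, 0.59 and 0.607 FPKM in knockout-labelled libraries. The 7 lymphoid markers, of which 5 stayed under 0.1 FPKM in every library, summed to 1.02, 0.248 and 0.793 FPKM in control and 0.111 to 0.146 FPKM in knockout-labelled libraries. The control sums came mostly from the B cell gene *Cd79b*, and the T cell genes *Cd3e* and *Cd3g* were listed at 0 in all 12 libraries. The part of these cells in the *Tnfsf11* result was not tested.

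*Tnfrsf11b* (ENSMUSG00000063727, chromosome 15, 54250619 to 54278484, minus strand), encoding the RANKL decoy OPG, rose in both media. In osteogenic medium it was 3.38, 3.00 and 3.19 FPKM in control and 6.40, 6.12 and 6.41 FPKM in knockout-labelled libraries. Adipogenic control libraries held 5.18, 3.61 and 4.49 FPKM, and the knockout-labelled ones 5.57, 6.55 and 6.18 FPKM. The genotypes did not overlap in either medium, and the knockout-labelled groups of the media overlapped each other. The means of 3.19 ± 0.194 and 6.31 ± 0.165 FPKM (SD, n = 3) in osteogenic medium had a ratio of 1.98 and a log2 difference of 0.80 (standard error 0.0963, adjusted p = 0.00095). The means of 4.43 ± 0.787 and 6.10 ± 0.493 FPKM in adipogenic medium gave 0.40 (adjusted p = 0.0113), and 0.62 (adjusted p = 0.00103) against control library 2 alone.

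The balance of RANKL to OPG transcript was read as the log2 of *Tnfsf11* over *Tnfrsf11b*, with 0.1 FPKM added to each. It was -1.28, -1.32 and -1.57 in control and -2.38, -2.22 and -2.40 in knockout-labelled libraries in osteogenic medium. The adipogenic ratios were 0.79, -0.88 and 1.23 in control and -2.16, -2.95 and -3.35 in knockout-labelled libraries. *Tnfsf11* thus exceeded *Tnfrsf11b* per length in control adipogenic libraries 1 and 3 and in no other library. The knockout-labelled ratios were below all controls in both media, with a difference of -0.95 log2 units in osteogenic medium (-2.34 ± 0.10 against -1.39 ± 0.15, SD, n = 3) and of -3.20 in adipogenic medium (-2.82 ± 0.60 against 0.38 ± 1.11). The exact two-sided permutation p was 0.1 in each medium, the smallest that 3 against 3 libraries allow, so the design cannot pass 0.05 for a single ratio. The difference between the media, -2.26, had an exact permutation p of 0.165 over 400 arrangements of genotype within medium. Such arrangements assume no genotype difference in either medium, so this p cannot decide whether the genotype difference is equal in both. In osteogenic medium the lower ratio went with more *Tnfrsf11b* at a level of *Tnfsf11* that was not detectably different, and in adipogenic medium with more *Tnfrsf11b* and less *Tnfsf11*.

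**Figure D3:**
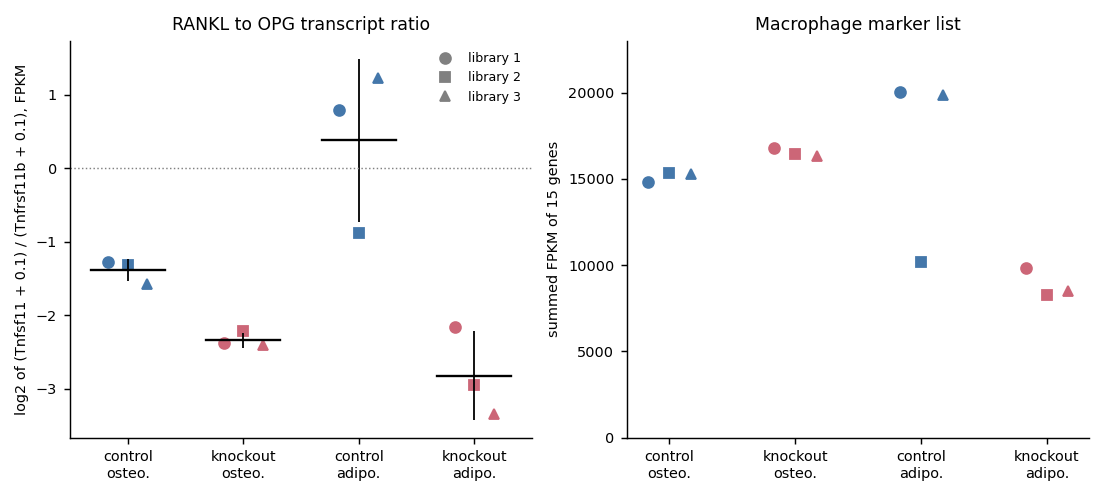
Left, log2 ratio of *Tnfsf11* (RANKL) to *Tnfrsf11b* (OPG), each with 0.1 FPKM added (y axis), by group (x axis), with one point per library, the mean as a line and the SD as a bar (n = 3). Right, the summed FPKM of the 15 macrophage markers in the same libraries (y axis, linear from 0), where control adipogenic libraries 1 and 3 (20005 and 19883 FPKM) are again apart from library 2 (10202 FPKM).

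*Grem1* (ENSMUSG00000074934, chromosome 2, 113746164 to 113758646, minus strand), the BMP antagonist of skeletal stromal cells, fell in adipogenic medium. There it was 112, 82.6 and 125 FPKM in control and 51.4, 41.6 and 40.7 FPKM in knockout-labelled libraries. The 3 knockout-labelled libraries lay below all other 9. The means of 107 ± 21.6 and 44.5 ± 5.95 FPKM (SD, n = 3) had a ratio of 0.418 and a log2 difference of -1.23 (standard error 0.136, adjusted p = 0.000146), and -0.88 (adjusted p = 0.000886) against control library 2 alone. In osteogenic medium it was 135, 135 and 147 FPKM in control and 148, 143 and 150 FPKM in knockout-labelled libraries. Those groups overlapped, with a difference of 0.08 (adjusted p = 0.797).

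The genotype difference itself was compared between the media with the interaction term of the same fit, in which 5 of the 9 factors passed, against 20.4% of all genes. The adipogenic minus osteogenic difference was -1.02 for *Cxcl12* (standard error 0.128, adjusted p = 0.000569), -0.80 for *Angpt1* (adjusted p = 0.0148), 0.87 for *Csf1* (adjusted p = 0.00093), -1.97 for *Tnfsf11* (adjusted p = 0.0394) and -1.31 for *Grem1* (adjusted p = 0.00138). The *Tnfsf11* interaction passed in only 2 of the 12 fits that left out 1 library, with adjusted p of up to 0.09, did not pass by voom on recovered fragments (-2.78, adjusted p = 0.173) or without a filter on low values (-1.97, adjusted p = 0.0878), and was -0.71 (adjusted p = 0.0492) with control library 2 as the only adipogenic control. *Kitl* (0.49, adjusted p = 0.081), *Il7* (0.26, adjusted p = 0.143), *Il34* (0.37, adjusted p = 0.379) and *Tnfrsf11b* (-0.41, adjusted p = 0.0594) did not pass. Without control adipogenic library 2, 8 of the 9 passed, beside 42.2% of all genes.

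**Figure D4:**
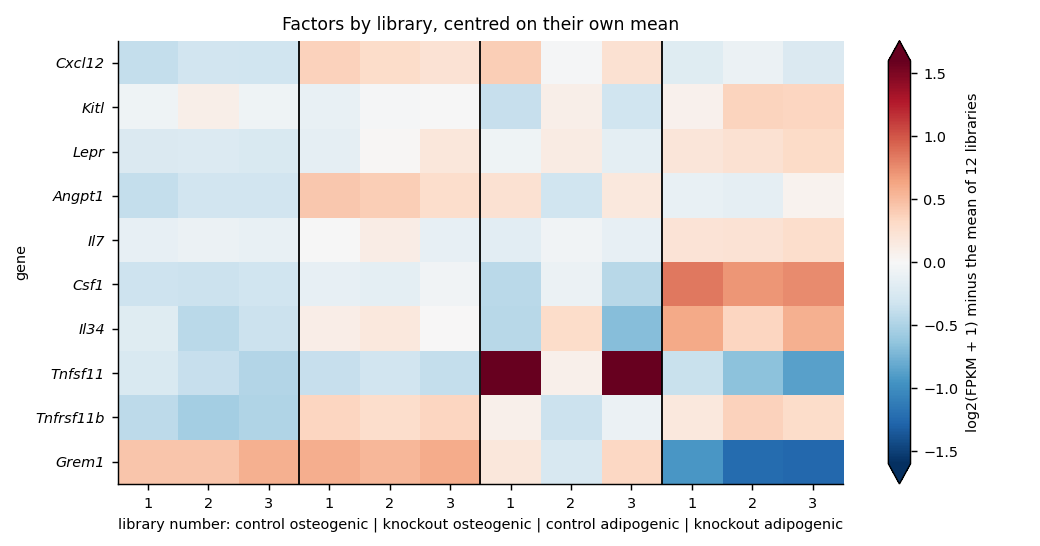
Each factor (rows) in each of the 12 libraries (columns), as log2(FPKM + 1) minus the mean of that factor over the 12 libraries (colour, red above and blue below the mean, clipped at the ends of the scale). *Csf1* is 0.71 to 0.84 above its mean in the knockout-labelled adipogenic libraries, *Grem1* is 0.93 to 1.26 below, and *Tnfsf11* is 1.86 and 2.08 above its mean in control adipogenic libraries 1 and 3 only.

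The media were also compared within each genotype. A difference between the media holds all components of both. In control cells 3 of the 9 factors passed, against 22.8% of all genes. *Cxcl12* was higher in adipogenic medium by 0.55 (adjusted p = 0.00361), *Tnfsf11* by 1.70 (adjusted p = 0.0181) and *Tnfrsf11b* by 0.36 (adjusted p = 0.0247). Leaving out any 1 library other than control adipogenic library 2 took the adjusted p of *Tnfsf11* to 0.0501 to 0.0708 and that of *Tnfrsf11b* to 0.0514 to 0.0867. For *Csf1* the difference in control cells was 0.00 (standard error 0.0847, adjusted p = 0.975).

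In knockout-labelled cells 5 of the 9 passed, against 27.9% of all genes. *Csf1* was higher in adipogenic medium by 0.88 (adjusted p = 6.89e-05) and *Il7* by 0.25 (adjusted p = 0.0418), while *Grem1* (-1.71, adjusted p = 2.09e-05), *Cxcl12* (-0.48, adjusted p = 0.00347) and *Angpt1* (-0.44, adjusted p = 0.0334) were lower. *Il7*, which entered the test only through the group in which it was high, passed in 1 of 6 fits that left out 1 library, and *Angpt1* in 1 of 6. *Cxcl12* moved up with adipogenic medium in control and down in knockout-labelled cells. The fall of *Grem1* with adipogenic medium did not pass in control cells (-0.40, adjusted p = 0.0572).

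The receptors and ligands that the factors work with were followed as a list of 19 genes, of which 10 could be tested. In osteogenic medium 2 rose and 2 fell, beside 9.09% of all genes, with a median log2 difference of -0.04. *Bmp4*, a ligand that GREM1 blocks, rose by 1.00 (adjusted p = 0.0134) and *Lgr4*, a further receptor of RANKL, by 0.50 (adjusted p = 0.0408). *Tnfrsf11a*, which encodes the RANKL receptor RANK, was 20.5, 19.4 and 19.4 FPKM in control and 12.9, 13.2 and 13.3 FPKM in knockout-labelled libraries, a change of -0.56 (adjusted p = 0.00202). The other gene that fell was *Csf1r*.

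In adipogenic medium 4 of these 10 genes rose and 3 fell, beside 33.2% of all genes, with a median of 0.19. *Bmp4* was 0.947, 1.96 and 1.04 FPKM in control and 3.72, 6.14 and 6.65 FPKM in knockout-labelled libraries, a rise of 1.48 (adjusted p = 0.000502), in the medium in which its antagonist *Grem1* fell. *Cxcr4*, the CXCL12 receptor, was 5.59, 27.0 and 5.67 FPKM in control and 19.8, 28.9 and 28.1 FPKM in knockout-labelled libraries (1.29, adjusted p = 0.0495), with control library 2 inside the knockout-labelled range. *Il2rg*, the common chain of the IL7 receptor, was 26.5, 7.41 and 23.4 FPKM in control and 10.2, 2.49 and 3.79 FPKM in knockout-labelled libraries, with control library 2 again inside the knockout-labelled range. It fell by 1.64 on the log2 scale (adjusted p = 0.0236), and *Sdc1*, a proteoglycan that binds IL34, by 1.17 (adjusted p = 0.0104).

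Of the 12 other BMP antagonists, 8 were tested. In osteogenic medium only *Twsg1* passed (0.29, adjusted p = 0.0423), beside 9.09% of all genes. In adipogenic medium all 8 passed, 5 higher and 3 lower, with a median of 0.40, beside 33.2% of all genes. *Nog* reached 1 FPKM only in the knockout-labelled adipogenic libraries and entered the test through them, and without it 4 were higher and 3 lower, with a median of 0.30. *Nog*, which encodes noggin, was 0.574, 0.564 and 0.728 FPKM in control and 2.51, 4.16 and 4.41 FPKM in knockout-labelled libraries (1.51, adjusted p = 0.000184). *Fst*, which encodes follistatin, was 3.46, 3.47 and 4.18 FPKM in control and 10.4, 11.8 and 11.9 FPKM in knockout-labelled libraries (1.40, adjusted p = 3.3e-06). *Fstl1* was lower (-0.61, adjusted p = 0.0103), as *Grem1* was, while *Nog* and *Fst* were higher.

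Of 25 other niche factors, 16 were tested, and 4 rose and none fell in osteogenic medium (median 0.22, beside 9.09% of all genes called), led by *Nes* (0.83, adjusted p = 0.0101) and *Fgf2* (0.79, adjusted p = 0.015). *Nes* encodes nestin, an intermediate filament of perivascular stromal cells. In adipogenic medium 4 rose and 5 fell (median -0.35, beside 33.2% of all genes called). *Cdh2*, which encodes N-cadherin, rose by 0.92 (adjusted p = 3.62e-05) and *Fgf2* by 0.92 (adjusted p = 0.00219). *Il6* (-2.42, adjusted p = 0.0468) and *Il11* (-1.07, adjusted p = 0.00894) fell. For *Il6*, control library 2 lay inside the knockout-labelled range.

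Of 11 stromal genes that regulate osteoclast formation, 9 were tested. In osteogenic medium only *Il6st*, the shared receptor chain of the IL6 family, passed (-0.18, adjusted p = 0.0218), beside 9.09% of all genes. In adipogenic medium 4 rose and 3 fell (median 0.04, beside 33.2% of all genes called). *Il6st* was 15.5, 16.3 and 15.3 FPKM in control and 24.8, 26.2 and 25.5 FPKM in knockout-labelled libraries (0.67, adjusted p = 4.4e-06), and *Efnb2*, the ephrin B2 ligand, rose by 0.67 (adjusted p = 0.000383). *Ptgs2*, the enzyme that makes prostaglandin and so induces RANKL, fell by 1.00 (adjusted p = 0.0187), and *Vdr*, the vitamin D receptor, which also acts on *Tnfsf11*, fell by 0.86 on the log2 scale (adjusted p = 0.0161). *Vdr* was 19.2 and 17.8 FPKM in control libraries 1 and 3 and 8.38 FPKM in control library 2, against 7.29, 7.37 and 7.52 FPKM in knockout-labelled libraries.

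The other cell lists were measured in the same libraries. The 12 stromal markers summed to 1316 to 1491 FPKM in control and 1464 to 1614 FPKM in knockout-labelled libraries in osteogenic medium, and to 1674 to 1962 and 1804 to 1848 FPKM in adipogenic medium. The 10 osteoclast markers, of which *Calcr* stayed under 0.1 FPKM, summed to 87.3 to 91.5 and 118 to 121 FPKM in osteogenic and to 87.2 to 90.3 and 74.5 to 81 FPKM in adipogenic medium. The 9 adipocyte markers summed to 253 to 265 and 183 to 199 FPKM in osteogenic and to 113 to 171 and 177 to 225 FPKM in adipogenic medium, with *Plin1*, *Lep* and *Cidec* under 0.1 FPKM in every library. The 8 osteoblast markers summed to 14.1 to 15.9 and 12.2 to 13.1 FPKM in osteogenic and to 33.7 to 64.7 and 37.7 to 46.8 FPKM in adipogenic medium, with *Dmp1* and *Phex* under 0.1 FPKM. Calls by gene did not always follow the sums. In osteogenic medium 0 of the 6 tested osteoclast markers passed, beside 9.09% of all genes. In adipogenic medium 3 of the 5 tested osteoblast markers were called higher and 0 lower, beside 33.2% of all genes. Of those 5, 1 reached 1 FPKM in libraries of 1 genotype only, and without it 2 of 4 were higher. The part of these cells in the levels of the 10 factors was not tested.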

How the data were processed

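RNA-seq of MSCs was analysed in 12 libraries, grouped by the sample labels into 2 genotypes and 2 media with 3 libraries each. The authors deposited FPKM for 54532 genes by Ensembl identifier, with libraries made with a NEBNext Ultra kit. The submitters' processing notes name Bowtie 0.12.2 and mm9, and the paper's software list also names HISAT2 and Ballgown. The annotation and the use of strand are not given in the sources used here. Each deposited column had a median ratio of 1.001 to the geometric mean library, so median-ratio scaling was already in the FPKM. With GENCODE M21 exonic lengths (GRCm38, also the source of symbols and coordinates), 98.2% to 98.4% of the values under 30 fragments were within 0.02 of a whole number of fragments, against 4% by chance. Intervals cover counting error only, since amplified fragments are not independent molecules.

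Genes with at least 1 FPKM in at least 3 libraries (12871) were tested on log2(FPKM + 1) with limma 3.58.1 (R 4.3.3), which fitted 4 group means and a trend of variance on mean, with a pseudocount of 1 and Benjamini-Hochberg adjustment at 0.05. The method was tested on simulated data for the osteogenic genotype comparison. Every group was given the same spread there, so the simulation did not cover an outlying library or groups of unequal spread. Single ratios used exact permutation tests in scipy 1.17.1. Figures were drawn with matplotlib 3.10.9. Alternatives were a pseudocount of 0.1, no filter, values rescaled to the same sum (TPM), median-ratio scaling, no trend, the replicate number as a block, genotype and number together as a block between the media, voom on recovered fragments, only the groups compared and each library left out. The fit with a single control adipogenic library was added after seeing the data. The 10 factors and the gene lists were chosen with earlier results of these data known. Named are the 10 factors, *Chd7*, and from each pathway list, for each genotype comparison, up to 2 called genes with the largest increase and 2 with the largest decrease. Other named genes (*Kit*, *Tek*, *Il7r*, *Adgre1*, *C1qa*, *C1qb*, *Cd68*, *Cd79b*, *Cd3e* and *Cd3g*) were chosen after their values were seen. A gene that this rule selects is not reported here.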

Additional observations from a re-analysis of the deposited data

Results flagged for a closer look

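The genotype difference of 5 of the 9 tested factors differed between the media by the limma interaction term, beside 20.4% of all genes. The adipogenic minus osteogenic difference was -1.02 for *Cxcl12*, -0.80 for *Angpt1*, 0.87 for *Csf1*, -1.97 for *Tnfsf11* and -1.31 for *Grem1*, on the log2(FPKM + 1) scale. The *Tnfsf11* interaction passed in only 2 of the 12 fits that left out 1 library. The *Cxcl12* change passed the test in opposite directions in the media. Its adipogenic call was lost with the same sum of FPKM per library (limma, adjusted p = 0.0544). It was also lost when only the adipogenic libraries were fitted (limma, adjusted p = 0.0786). Groups of 3 libraries were not searched for single outlying values.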

How the results depend on the processing

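The calls of *Cxcl12*, *Angpt1* and *Tnfrsf11b* in osteogenic medium, of *Csf1*, *Grem1* and *Il7* in adipogenic medium, and of *Cxcl12*, *Angpt1*, *Csf1* and *Grem1* in the interaction held under every alternative planned, each library left out included. Of these, *Il7* entered the test only through the group in which it was high. The number of factors called in osteogenic medium went from 3 to 5 when only the groups compared were fitted, beside 26.6% of all genes. In adipogenic medium it went from 8 to 3 in that fit, beside 13% of all genes. Between the media in control cells it went from 3 to 0 when only the groups compared were fitted, beside 3.81% of all genes called. There 4 of 9 had an unadjusted limma p under 0.05. With the replicate number added to that fit as a block it was again 0, beside 0 of all 12871 genes called. Here too 4 of 9 had an unadjusted limma p under 0.05. These zeros are thus not particular to the factors. By voom on recovered fragments the number of factors called in control cells was 2, beside 21.1% of all genes. In knockout-labelled cells it went from 5 to 3 without a filter on low values (10.7% of all genes) and to 6 when only the groups compared were fitted (37.4%), where *Kitl* and *Il34* were gained and *Il7* was lost. The cause of these shifts was not tested. Leaving out 1 library gave 4 to 8 calls in the interaction, 1 to 5 between the media in control cells and 3 to 4 between the media in knockout-labelled cells. The highest of the first 2 came without control adipogenic library 2, beside 42.2% and 47.8% of all genes, against 14% to 19.7% and 10.6% to 12.3% without any other library. The share of all genes in knockout-labelled cells was 19.4% to 22.3%.

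Signs that reversed all belonged to differences that had not passed the test. With the same sum of FPKM per library they were *Angpt1* in adipogenic medium (0.03), *Csf1* (-0.13) and *Il34* (-0.06) between the media in control cells, and *Tnfrsf11b* between the media in knockout-labelled cells (0.01). By voom it was *Il7* between the media in control cells (0.01). With control library 2 as the only adipogenic control they were *Angpt1* in adipogenic medium (0.25), *Il34* in the interaction (-0.20), and *Il7* (0.06) and *Kitl* (0.11) between the media in control cells. Without single libraries *Kitl* ran from -0.06 to 0.02 and *Tnfsf11* from -0.04 to 0.06 in osteogenic medium, and *Angpt1* from -0.27 to 0.01 in adipogenic medium. Between the media, *Csf1* ran from -0.11 to 0.07, *Il34* from -0.24 to 0.24 and *Il7* from -0.03 to 0.02 in control cells, and *Tnfrsf11b* from -0.09 to 0.01 in knockout-labelled cells. Apart from reversed signs, and counted per factor and fit, a call was lost 35 times without a library and 30 times in other fits. A call was gained 8 and 13 times.

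The labels number the libraries 1 to 3 in each group, but whether the numbers pair them across genotypes was not settled. Deviations of libraries with the same number correlated at -0.038 to 0.058 between genotypes in osteogenic medium. There 1 of 3 libraries correlated best with its own number. In adipogenic medium the correlations were 0.466, 0.397 and -0.286 for numbers 1, 2 and 3, and 2 of 3 libraries correlated best with their own number. Between the media, the correlations were -0.056 to 0.086 in control and -0.020 to 0.030 in knockout-labelled cells, and no label says that a number marks the same cells in both media. With the number as a replicate block, 3, 8, 6, 4 and 5 factors were called in osteogenic medium, in adipogenic medium, in the interaction and between the media in control and in knockout-labelled cells, beside 7.91%, 32.4%, 19.2%, 22.6% and 27% of all genes. The lowest p of a sign-flip test of 3 pairs is 0.25, which both RANKL to OPG ratios gave in that paired form. The split of called genes into higher and lower under the same sum of FPKM was 1716 and 564 in the interaction (1397 and 1233 as deposited), 647 and 1458 between the media in control cells (1354 and 1581) and 1697 and 897 in knockout-labelled cells (1785 and 1807). *Lepr*, *Il7* and *Tnfsf11* rest on 22 to 151 fragments in most libraries, which limits what a single library can show.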
